A study of Homo sapiens with 8 samples.

Results

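The genes described here are 41 nucleolar factors that build ribosomes, followed through MDA-MB-231 cells exposed to EMD37. They were taken by symbol from a given list, and all 41 matched 1 gene each among the 43627 genes with reads in either deposited table. The count table itself held 36715 genes and 40 of the members. The remaining member, BOP1, came from the deposited normalized counts, from which its whole reads were recovered. MDA-MB-231 is an established human triple-negative breast cancer line, and EMD37 is a compound known here by its code name. The 4 groups were DMSO vehicle for 12 h, EMD37 at 0.5 µM for 12 h, DMSO vehicle for 24 h and EMD37 at 0.5 µM for 24 h, each with 2 RNA-seq libraries marked A and B. Whether A and B were separate cultures was not stated in the labels, so p-values measure only the spread among libraries, which may be technical.

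Ribosomes are made in the nucleolus, where RNA polymerase I transcribes a long precursor of the 18S, 5.8S and 28S ribosomal RNAs. Small nucleolar ribonucleoprotein particles (snoRNPs) modify that precursor by methylation and pseudouridylation. A large assembly, the small subunit processome, folds and cleaves the part that becomes the 40S subunit, while other helicases, GTPases and scaffold proteins build the 60S subunit. Growing cancer cells spend much of their transcription and translation on this pathway, and the MYC transcription factor is known to drive many of its genes through the E-box motif.

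Libraries held 8.99 M to 11.44 M reads (M, mega) in the count table, and log2 levels of replicates correlated at Pearson's r of 0.988 to 0.992 across genes, which are not independent. The 5 markers of MDA-MB-231 (VIM, CD44, AXL, CAV1, MSN) summed to between 5579 and 7546 CPM (reads scaled to the library total, with M for mega) in each library. Markers of luminal breast epithelium summed to 4.90 to 9.90 CPM, those of fibroblasts to 2.04 to 4.69 and those of leukocytes to 0.485 to 1.52. The markers listed for the line were thus high in all 8 libraries, and those of the other cell types were low. No other line was compared, so these markers do not identify the line. As a check of the treatment, HSPA5, the chaperone BiP of the endoplasmic reticulum, rose by log2 3.42 at 12 h and 2.81 at 24 h. DDIT3, a stress transcription factor, rose by log2 3.29 and 2.31.

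Levels of different genes were compared per length, as RPKM (CPM divided by the exon length in kilobases). Over the 8 libraries DDX21, an RNA helicase, averaged 229 RPKM and ranged from 200 to 268. NCL (nucleolin) followed at 171 RPKM, then NOLC1, a snoRNP chaperone, at 126, GNL3 (nucleostemin) at 104 and NOP56, a box C/D snoRNP core protein, at 95.5. The ranges of DDX21, NCL, NOLC1 and GNL3 did not touch each other, whereas GNL3 (84.0 to 117 RPKM) and NOP56 (75.5 to 112) overlapped. From MRTO4 at 58.3 RPKM down to RRP12 at 6.85 RPKM, each member overlapped the next in the order. At the bottom stood UTP4 at 3.16 RPKM, NOP2 at 2.36, DKC1 at 1.41 and NHP2 at 0.737, and in that stretch UTP4 overlapped NOP2 and DKC1 overlapped NHP2. DKC1 and NHP2 rested on means of 61 and 11.4 reads per library, so their fold changes are imprecise. Whether levels this low reflect little RNA or reads lost in counting was not tested. Exon bases shared with another gene were over 15% in 10 members, led by NOP2 (54.4%, with AC006064.6), LTV1 (34.8%) and NHP2 (27.4%, with RMND5B). Among members called at 24 h these were NIP7 (20.2%) and POLR1C (18.2%, with 4 genes). How the authors' counting treated reads in shared bases was not given in the labels or notes, and the kit does not mark strand, so the levels of these 10 genes are uncertain. NPM1 has 45 pseudogenes named after it in the annotation, which could also split its reads.

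**Figure D1:**
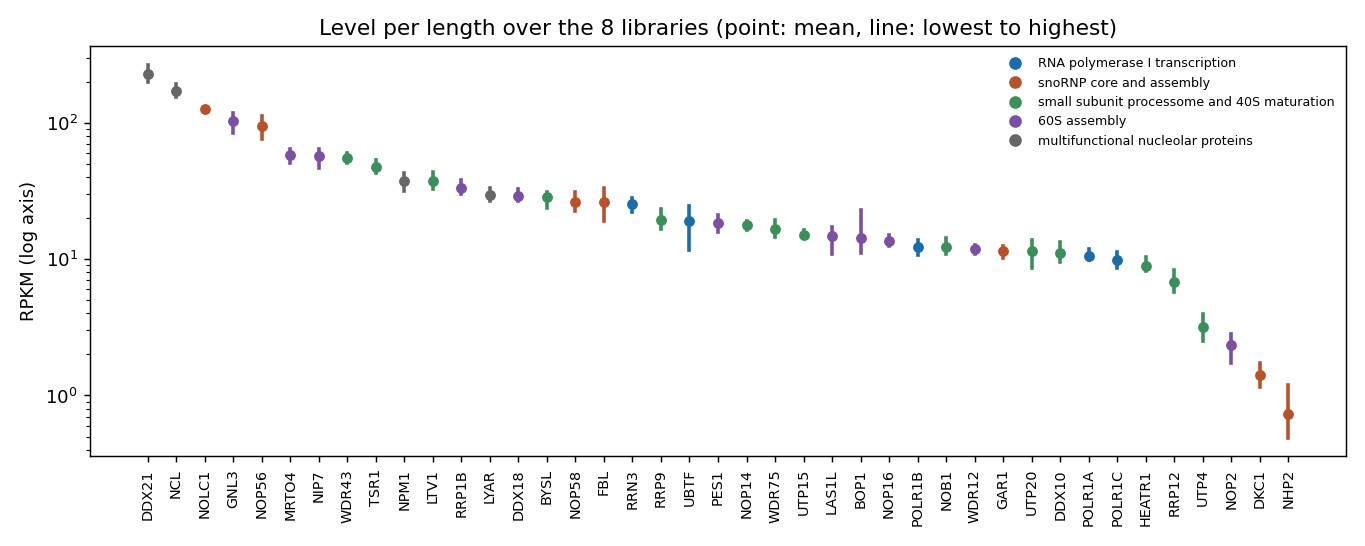
Level per length of each of the 41 members in RPKM (log axis), ordered from highest to lowest; points are means over 8 libraries, lines run from the lowest to the highest library, and colours give the role. DDX21 stands highest at 229 RPKM and NHP2 lowest at 0.737 RPKM.

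Promoter sequence offered a feature that the choice of members did not use. RefSeq windows on GRCh38.p14, from 250 bases before to 50 bases from the annotated start onward, were at hand for 35 of the 41 members, in 43 windows. The E-box CACGTG, which reads the same on both strands, was found in 15 of these 35 members (42.9%). It was found in 8.78% of the 27305 genes in the promoter table, in 12.2% of the 10328 genes that were also tested here, and in 29.8% of 104 other ribosome biogenesis genes. All 15 matches in members began between 64 bases before and 35 bases after the start, a range read off these same matches. Of the 2821 matches in the whole table, 43.0% began in that range. The short motif CGCG was found in 31 members (88.6%), beside 83.2% of tested genes.

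Stretches of 100 bases, from 70 before the start to the first bases of the transcript, are printed 5′ to 3′ on the strand of the gene, with CACGTG in capitals. UTP20, FBL and MRTO4 carried the motif and fell at 24 h, DDX21 carried it and rose at 24 h, and GNL3 carried it and rose at 12 h. UBTF and NOP56 fell at 24 h, and CACGTG is not in the windows at hand for them. Where RefSeq gives more than 1 start, the window with the motif is shown, or the first in the table for UBTF.
UTP20 (chr12:101280035-101280134, plus strand): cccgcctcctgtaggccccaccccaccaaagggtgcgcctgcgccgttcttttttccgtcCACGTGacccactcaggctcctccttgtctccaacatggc
FBL (chr19:39846350-39846449, minus strand): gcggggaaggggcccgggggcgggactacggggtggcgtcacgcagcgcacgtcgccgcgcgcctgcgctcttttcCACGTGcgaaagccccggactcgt
MRTO4 (chr1:19251735-19251834, plus strand): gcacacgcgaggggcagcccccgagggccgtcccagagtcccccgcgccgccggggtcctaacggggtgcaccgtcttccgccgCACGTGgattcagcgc
DDX21 (chr10:68956577-68956676, plus strand): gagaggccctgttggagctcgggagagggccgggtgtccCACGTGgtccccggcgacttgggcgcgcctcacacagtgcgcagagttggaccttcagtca
GNL3 (chr3:52685962-52686061, plus strand): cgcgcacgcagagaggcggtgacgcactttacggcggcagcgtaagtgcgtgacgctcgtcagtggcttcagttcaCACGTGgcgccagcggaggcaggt
UBTF (chr17:44220853-44220952, minus strand): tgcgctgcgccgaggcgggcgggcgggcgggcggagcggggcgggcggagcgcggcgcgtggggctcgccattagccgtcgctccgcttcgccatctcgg
NOP56 (chr20:2652562-2652661, plus strand): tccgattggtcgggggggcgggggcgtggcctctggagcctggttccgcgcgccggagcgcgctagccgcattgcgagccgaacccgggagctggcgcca
In these windows the motif thus appeared beside both directions of change. Among members with a window, it was in 3 of 8 that fell at 24 h, in 1 of 3 that rose and in 11 of 24 that were not called. A match is a description of the letters and does not show that a factor binds there.

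At 24 h EMD37 moved 13 of the 41 members in both directions, and by small amounts. UBTF, UTP20, FBL, NOP56, LAS1L, POLR1C, NIP7, MRTO4 and RRP1B fell, by 15.7% to 43.3%. DDX10, DDX21, RRN3 and RRP12 rose, by 21.2% to 30.1%, and the other 28 members were not called. A gene was called at an adjusted p below 0.05 in the quasi-likelihood test of edgeR, with p adjusted by Benjamini-Hochberg over all 14850 genes tested, and 40.7% of all genes were called either way. The 9 members that fell are 22.0% of the list, beside 21.1% of all genes tested. The 4 that rose are 9.76%, beside 19.6%. In the fit of all 8 libraries the share that fell is therefore near that of the transcriptome. Which members fell, and how many, changed when a single 24 h library was left out, as given by gene below. The median member changed by log2 −0.04 and the median gene by −0.03, and the middle 50% of members lay between −0.24 and 0.09, inside the −0.40 to 0.33 of all genes. UBTF alone among the members passed a 1.5-fold change, beside 30.7% of all genes, and no member reached 2-fold, beside 12.7%. Members had more reads than most genes, with a median of 865 reads per library against 198.5, and what this contributes to their narrower spread was not tested. Without EMD37 library B of 24 h, 1 member rose (DDX10), beside 14.2% of all genes. Scaled by library totals alone, 3 members rose and 13 fell, POLR1B, WDR75, RRP9 and NCL joining the 9, beside 15.9% and 26.5% of all genes, while the split over all genes went from 48.3% to 37.4% higher among those called. In bulk RNA, fewer cells expressing a gene and less of its RNA per cell cannot be told apart.

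**Figure D2:**
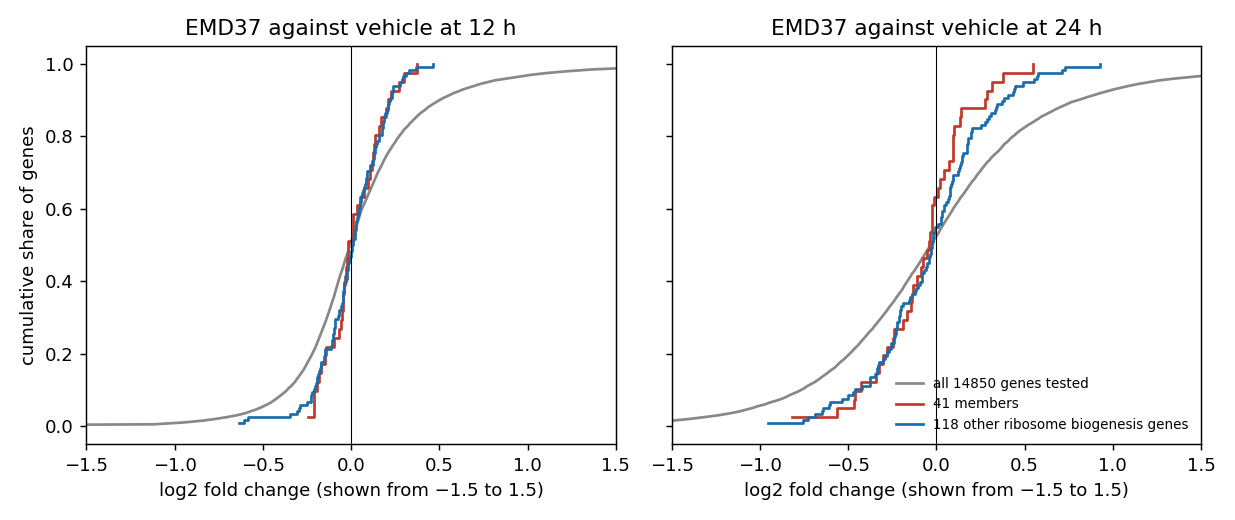
Cumulative share of genes against log2 fold change of EMD37 over vehicle at 12 h and 24 h, for all 14850 genes tested (grey), the 41 members (red) and 118 other ribosome biogenesis genes (blue). At 24 h the members run from −0.82 to 0.55 and rise more steeply than the grey curve around its centre, which sits at −0.03.

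At 12 h, 1 member was called. GNL3 rose 29.4%, and it is 2.44% of the list, beside 5.27% of all genes called higher and 8.7% called either way. No member was called lower by edgeR or by DESeq2, beside 3.43% of all genes. At an unadjusted p under 0.05 in edgeR, 3 members were higher and 5 lower. The share of all genes at that unadjusted threshold was not counted, so these numbers have no background. In the libraries, 13 members were higher without overlap at 12 h and 12 were lower, beside 26.5% and 28.4% of all genes. At 24 h those counts were 5 and 12, beside 31.4% and 35.4%. A fit of the 4 libraries of 12 h alone called 4 members higher (GNL3, NOP58, NCL and BOP1) and 2 lower (UBTF and NOP56), beside 9.87% and 7.85% of all genes at that setting. Scaled by library totals alone, 1 member rose at 12 h and 2 fell, NOP56 and NIP7, beside 4.58% and 5.32% of all genes, the split over all called genes going from 60.5% to 46.3% higher.

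**Figure D3:**
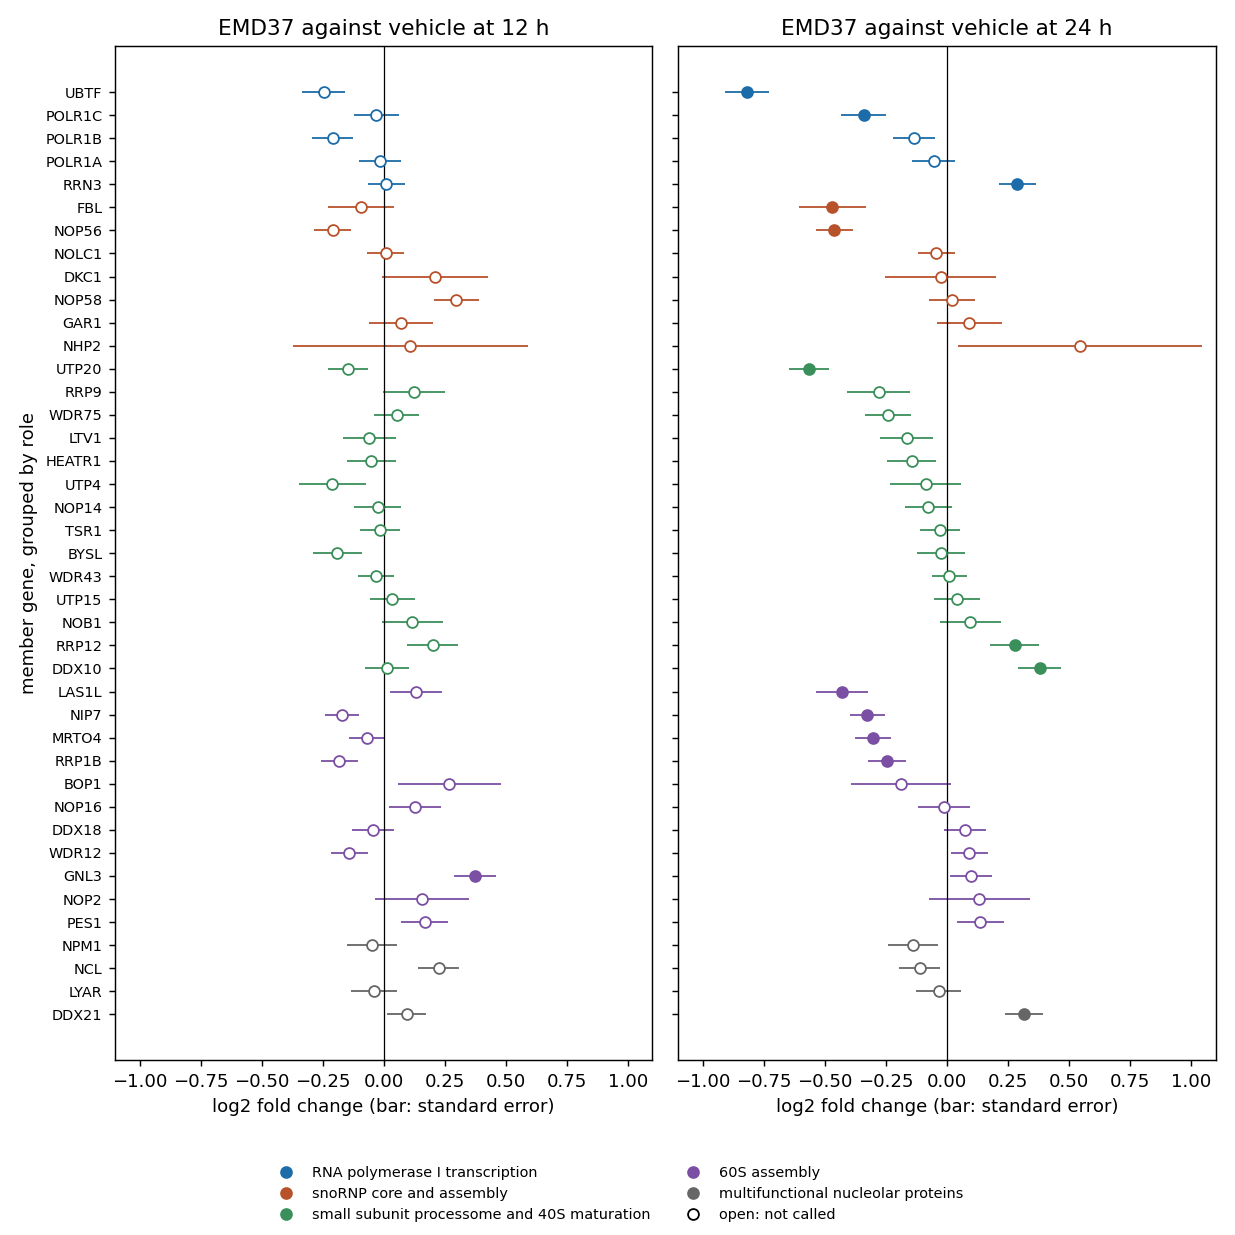
Log2 fold change of EMD37 over vehicle at 12 h (left) and 24 h (right) for all 41 members, grouped by role; bars are standard errors from the fit, filled points were called and open points were not. At 12 h only GNL3 is filled, and at 24 h UBTF lies lowest at −0.82.

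Of the 5 genes for RNA polymerase I transcription, 2 fell and 1 rose at 24 h, beside 21.1% and 19.6% of all genes. UBTF, the HMG-box factor that keeps ribosomal DNA in an open, transcribed state (ENSG00000108312, chromosome 17, 44205033 to 44221626 on GRCh38, minus strand), showed the largest fall of any member. Its levels were 155 and 171 CPM in the vehicle libraries A and B at 12 h and 138 and 137 CPM with EMD37. At 24 h they were 137 and 163 CPM with vehicle and 82.0 and 87.8 CPM with EMD37. Both EMD37 libraries thus lay below both vehicle libraries at each time. The 24 h change was log2 −0.82 (standard error 0.09, adjusted p = 2.57e-06), and it was called under all 15 alternative settings. At 12 h it was −0.25 (standard error 0.09, adjusted p = 0.104), which was called when either 24 h vehicle library was left out (adjusted p = 0.0259 without A and 0.0254 without B).

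RRN3 encodes TIF-IA, which bridges RNA polymerase I to the promoter factors (ENSG00000085721, chromosome 16, 15060022 to 15094317, minus strand). It stood at 111 and 107 CPM with vehicle at 12 h, 109 and 111 with EMD37 at 12 h, 93.1 and 92.0 with vehicle at 24 h, and 109 and 117 with EMD37 at 24 h. The 24 h vehicle libraries were the lowest of the 8, and the EMD37 libraries at 24 h lay within or above the range of the 4 libraries at 12 h. The rise at 24 h was log2 0.29 (standard error 0.08, adjusted p = 0.00671), and it was not called without EMD37 library B (0.24, adjusted p = 0.0717). POLR1C, a subunit shared by RNA polymerases I and III, went from 61.4 and 62.4 CPM with vehicle to 47.7 and 50.01 with EMD37 at 24 h. That fall was log2 −0.34 (standard error 0.09, adjusted p = 0.00722), and it was not called without EMD37 library A (−0.29, adjusted p = 0.0877). The largest subunits POLR1A and POLR1B were not called at 24 h, with log2 changes of −0.05 and −0.13.

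Among 7 genes of the snoRNP core and its assembly, 2 fell at 24 h and none rose by edgeR or DESeq2. Over all genes, edgeR called 21.1% lower and 19.6% higher. Both genes that fell belong to the box C/D particle, which carries out ribose methylation. NOP56 (ENSG00000101361, chromosome 20, 2652145 to 2658393, plus strand) read 587 and 562 CPM with vehicle at 12 h and 487 and 506 CPM with EMD37. At 24 h it read 602 and 546 CPM with vehicle and 408 and 427 CPM with EMD37. All 4 EMD37 libraries lay below all 4 vehicle libraries. The change was log2 −0.46 at 24 h (standard error 0.08, adjusted p = 0.000142), called under all 15 alternatives, and −0.21 at 12 h (standard error 0.08, adjusted p = 0.106).

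FBL, fibrillarin, is the methyltransferase of that particle (ENSG00000105202, chromosome 19, 39834458 to 39846414, minus strand). It read 67.3 and 53.2 CPM with vehicle and 54.0 and 58.6 with EMD37 at 12 h, then 72.2 and 56.8 with vehicle and 41.7 and 51.6 with EMD37 at 24 h. The groups overlapped at 12 h and not at 24 h, and at each time vehicle library A lay above vehicle library B. The 24 h fall of log2 −0.47 (standard error 0.14, adjusted p = 0.0119) was not called without vehicle library A (−0.25, adjusted p = 0.108) or without EMD37 library A (−0.31, adjusted p = 0.179).

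NOP58 is the partner of NOP56 in the same particle, and its 12 h values were singled out after they were seen. It read 89.6 and 78.2 CPM with vehicle and 103 CPM in both EMD37 libraries at 12 h, then 84.0 and 74.0 with vehicle and 76.6 and 83.9 with EMD37 at 24 h. The groups were apart at 12 h and overlapped at 24 h. The 12 h difference of log2 0.30 (standard error 0.09) had an adjusted p of 0.0574, which fell to 0.00935 and 0.00882 without vehicle library A or B of 24 h. At 24 h the difference was 0.02. NOP56 and NOP58 thus had estimates of opposite sign at 12 h, neither of them called, and the contrast between the genes was not tested. Of the box H/ACA proteins, DKC1 (the pseudouridine synthase), GAR1 and NHP2 were not called at either time. NHP2 had the highest estimate of any member at 24 h, log2 0.55, with a standard error of 0.50, and its sign turned without EMD37 library A (−0.03). NOLC1, among the most abundant members, changed by log2 0.01 at 12 h and −0.04 at 24 h with a standard error of 0.07 at 12 h.

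**Figure D4:**
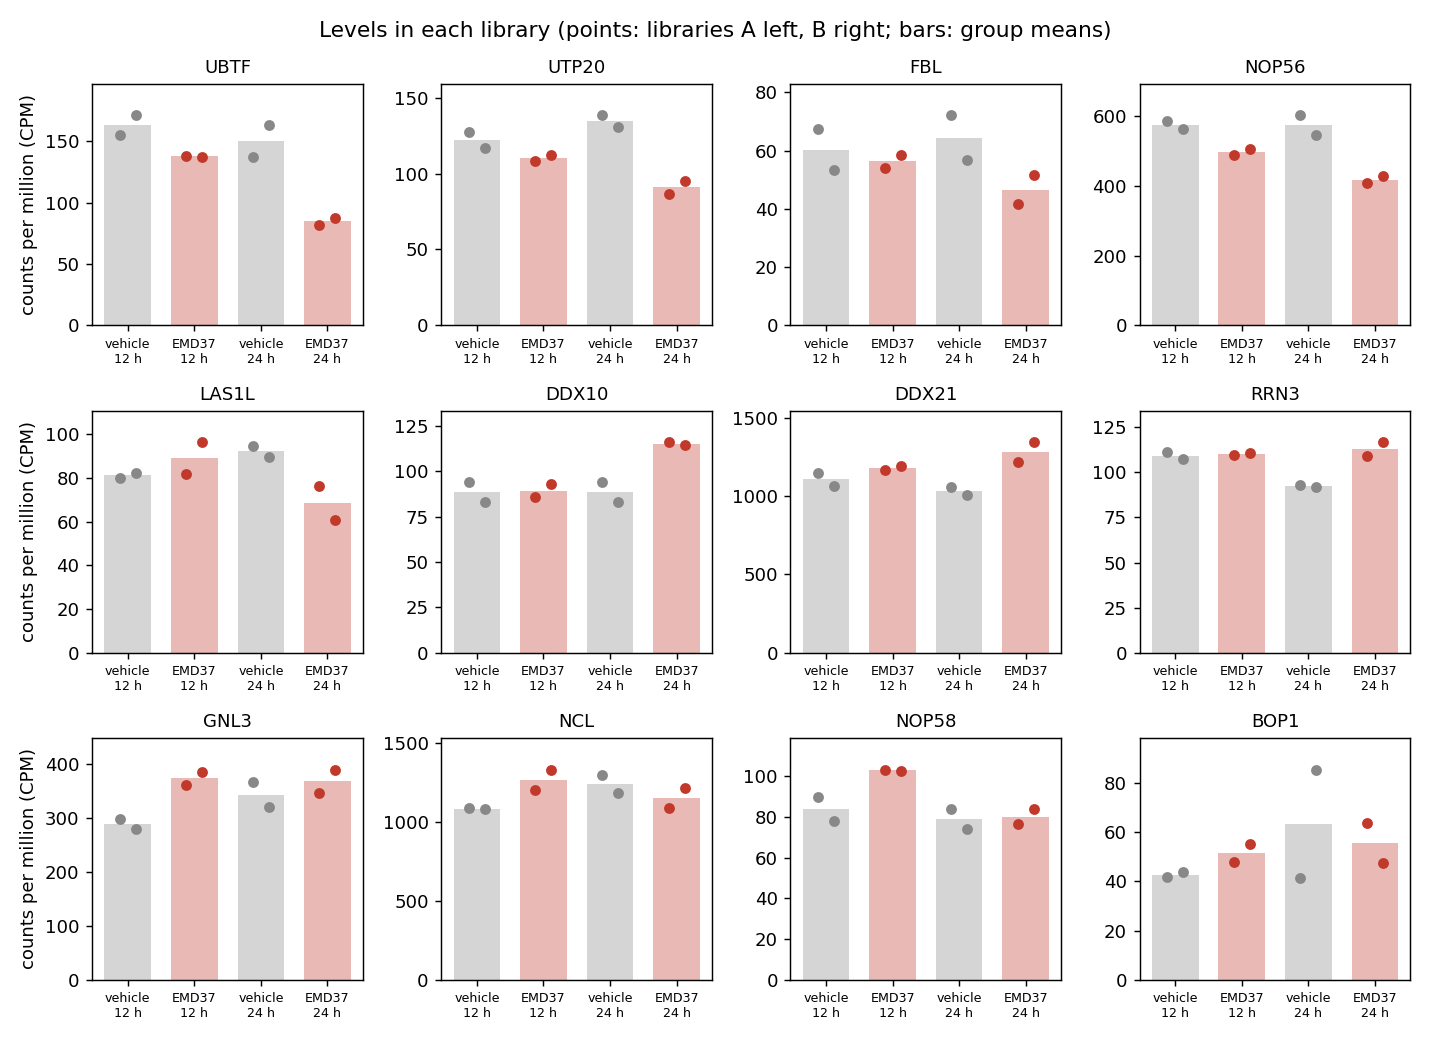
CPM of 12 members in every library; points are libraries (A left, B right), bars are means of 2 libraries, grey is vehicle and red is EMD37, and each vertical axis starts at 0. UBTF, UTP20 and NOP56 are lowest in both EMD37 libraries at 24 h, and BOP1 shows its highest level in 1 vehicle library at 24 h.

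The small subunit processome and 40S maturation genes numbered 14. At 24 h, 1 of them fell and 2 rose, beside 21.1% and 19.6% of all genes. UTP20, a very large processome scaffold (ENSG00000120800, chromosome 12, 101280109 to 101386616, plus strand), read 128 and 117 CPM with vehicle and 108 and 112 CPM with EMD37 at 12 h. At 24 h it read 138 and 130 CPM with vehicle and 86.7 and 95.1 CPM with EMD37. The groups were apart at both times, with the lowest levels at 24 h with EMD37. The change was log2 −0.56 at 24 h (standard error 0.08, adjusted p = 4.47e-05), called under all 15 alternatives, and −0.15 at 12 h (standard error 0.08, adjusted p = 0.311).

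DDX10, a DEAD-box helicase of the processome (ENSG00000178105, chromosome 11, 108665025 to 108940930, plus strand), had the largest rise of the called members. Its 6 libraries outside EMD37 at 24 h lay between 82.9 and 94.2 CPM, namely 94.2 and 83.3 with vehicle and 86.1 and 92.9 with EMD37 at 12 h, and 94.1 and 82.9 with vehicle at 24 h. EMD37 at 24 h gave 116 and 115 CPM, above all others. The rise was log2 0.38 (standard error 0.09, adjusted p = 0.00286) and was called under all 15 alternatives. RRP12, which acts in nuclear export and maturation of precursor subunits, read 49.2 and 50.1 CPM with vehicle and 55.3 and 58.8 with EMD37 at 12 h, and 51.8 and 63.0 with vehicle and 70.9 and 68.1 with EMD37 at 24 h. Its EMD37 libraries were above the vehicle libraries at both times. The 24 h rise of log2 0.28 (standard error 0.10, adjusted p = 0.0388) was called under 7 of the 15 alternatives. It was not called without EMD37 library A of 12 h (adjusted p = 0.0647), vehicle library A of 24 h (0.258), EMD37 library A of 24 h (0.131) or EMD37 library B of 24 h (0.099), nor by DESeq2 (0.0683).

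The other 11 genes of this group ran from log2 −0.28 for RRP9, a U3 snoRNP protein, to 0.10 for NOB1, the nuclease of the last 18S cleavage. Between them lay the processome WD-repeat proteins WDR75 (−0.24), UTP4 (−0.09), WDR43 (0.01) and UTP15 (0.04), the processome proteins HEATR1 (−0.14) and NOP14 (−0.08), and the 40S factors LTV1 (−0.16), TSR1 (−0.03) and BYSL (−0.02). WDR75 missed the threshold narrowly (adjusted p = 0.0516) and was called without vehicle library B of 24 h (−0.36, adjusted p = 0.00307). HEATR1 (−0.28) and LTV1 (−0.31) were also called without that library, while both changed sign without vehicle library A (0.04 each). RRP9 was called without vehicle library A (−0.39, adjusted p = 0.0211). Scaled by library totals alone, WDR75 (−0.33, adjusted p = 0.00775) and RRP9 (−0.37, adjusted p = 0.0283) were called with all libraries kept. Over the 41 members the median gap between those libraries was 0.15 on the log2 scale, against 0.13 between the EMD37 libraries at 24 h, 0.06 between the vehicle libraries at 12 h and 0.07 between the EMD37 libraries at 12 h.

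In the 60S assembly group, 4 of 11 members fell at 24 h and none rose by edgeR or DESeq2. Over all genes, edgeR called 21.1% lower and 19.6% higher. NIP7, which binds precursor 60S particles (ENSG00000132603, chromosome 16, 69337996 to 69343111, plus strand), read 304 and 298 CPM with vehicle and 265 and 270 CPM with EMD37 at 12 h. At 24 h it read 282 and 287 CPM with vehicle and 221 and 232 CPM with EMD37. Its replicates were close and its groups apart at both times. The change was log2 −0.33 at 24 h (standard error 0.07, adjusted p = 0.00155), called under all 15 alternatives, and −0.17 at 12 h (standard error 0.07, adjusted p = 0.158). NIP7 shared 20.2% of its exon bases with COG8. MRTO4, the nuclear stand-in for the stalk protein P0, fell from 177 and 181 CPM to 148 and 142 CPM at 24 h, log2 −0.30 (standard error 0.07, adjusted p = 0.00325), called under all 15 alternatives.

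LAS1L, the endonuclease that cleaves the second internal transcribed spacer (ENSG00000001497, chromosome X, 65512582 to 65534775, minus strand), read 80.1 and 82.4 CPM with vehicle and 82.0 and 96.3 with EMD37 at 12 h. At 24 h it read 94.5 and 89.8 CPM with vehicle and 76.4 and 60.6 with EMD37. The groups overlapped at 12 h and were apart at 24 h. The 24 h fall was log2 −0.43 (standard error 0.11, adjusted p = 0.00423), and it was not called without EMD37 library B (−0.28, adjusted p = 0.0896). RRP1B, a nucleolar protein of the RRP1 family, fell from 196 and 219 CPM to 174 and 176 CPM at 24 h, log2 −0.25 (standard error 0.08, adjusted p = 0.0181). That call was lost without vehicle library B (−0.17, adjusted p = 0.179), EMD37 library A (−0.22, adjusted p = 0.121) or EMD37 library B (−0.26, adjusted p = 0.0608).

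GNL3, the nucleolar GTPase nucleostemin (ENSG00000163938, chromosome 3, 52681156 to 52694492, plus strand), was the 1 member called at 12 h. It read 298 and 279 CPM with vehicle and 362 and 386 CPM with EMD37 at 12 h, and 367 and 320 CPM with vehicle and 346 and 390 CPM with EMD37 at 24 h. The 12 h vehicle libraries were the lowest of the 8, and the groups overlapped at 24 h. The change was log2 0.37 at 12 h (standard error 0.09, adjusted p = 0.0116) and 0.10 at 24 h (standard error 0.09, adjusted p = 0.384). The 12 h call was lost when any of the 4 libraries of that time was left out, with log2 values of 0.32 to 0.43 and adjusted p of 0.0567, 0.172, 0.0603 and 0.197 on leaving out A or B of vehicle and then A or B of EMD37.

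The trimeric complex of PES1, BOP1 and WDR12, which is needed for 5.8S and 28S maturation, had no member called. PES1 changed by log2 0.14 and WDR12 by 0.09 at 24 h, and PES1 was called without vehicle library B (0.30, adjusted p = 0.0211). BOP1, on recovered reads, stood at 41.9 and 43.7 CPM with vehicle and 47.9 and 55.4 with EMD37 at 12 h, then 41.3 and 85.5 with vehicle and 63.7 and 47.4 with EMD37 at 24 h. The 24 h vehicle libraries differed 2.07-fold, so the direction of the 24 h change depended on which was used. It was −0.19 with both, −0.67 (adjusted p = 9.17e-08) without A and 0.42 (adjusted p = 0.0040) without B. No direction is given for BOP1 at 24 h for that reason. NOP2 (an rRNA methyltransferase), NOP16 and DDX18 lay between log2 −0.01 and 0.13 at 24 h, and none of these 3 was called.

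Of the 4 multifunctional nucleolar proteins, 1 rose at 24 h and none fell by edgeR or DESeq2. Over all genes, edgeR called 19.6% higher and 21.1% lower. With library totals as the only scaling, NCL was called lower. DDX21, a helicase that works on both ribosomal DNA transcription and rRNA processing (ENSG00000165732, chromosome 10, 68956128 to 68985073, plus strand), read 1146 and 1066 CPM with vehicle and 1166 and 1194 CPM with EMD37 at 12 h. At 24 h it read 1055 and 1005 CPM with vehicle and 1220 and 1343 CPM with EMD37. The EMD37 libraries were above the vehicle libraries at both times. The change was log2 0.32 at 24 h (standard error 0.08, adjusted p = 0.00426), not called without EMD37 library B (0.24, adjusted p = 0.0534), and 0.09 at 12 h (adjusted p = 0.536).

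NCL, a histone and RNA chaperone of the nucleolus whose values were singled out after they were seen, read 1090 and 1081 CPM with vehicle and 1205 and 1333 CPM with EMD37 at 12 h. At 24 h it read 1299 and 1186 CPM with vehicle and 1088 and 1213 CPM with EMD37. The groups were apart at 12 h and overlapped at 24 h. The 12 h difference of log2 0.23 (standard error 0.08) had an adjusted p of 0.117, and 0.0413 and 0.0407 without vehicle library A or B of 24 h. At 24 h the difference was −0.11 (standard error 0.08, adjusted p = 0.318), and −0.20 (adjusted p = 0.0251) by library totals. NPM1, nucleophosmin, was at log2 −0.14 at 24 h with overlapping groups, called without vehicle library B (−0.27, adjusted p = 0.0225) and of opposite sign without vehicle library A (0.04). LYAR was at −0.03.

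Summed over the 41 members, the vehicle libraries held 7180 and 6906 CPM at 12 h and 7387 and 7091 at 24 h, and the EMD37 libraries held 7046 and 7374 at 12 h and 6741 and 7218 at 24 h. The groups overlapped at both times. DDX21 and NCL supply a large part of that sum. Without them it was 4944 and 4759 CPM with vehicle and 4674 and 4847 CPM with EMD37 at 12 h, and 5032 and 4900 CPM with vehicle and 4433 and 4661 CPM with EMD37 at 24 h. On that reduced sum the 24 h EMD37 libraries lay below the 24 h vehicle libraries, and the 12 h groups overlapped. The cut was made after the levels were seen, and it takes out DDX21, which was called higher at 24 h. Of all genes taken singly, 35.4% were lower without overlap at 24 h, and no such share was computed for sums of genes.

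The effect at 24 h was compared with that at 12 h through the treatment by time interaction, which uses the same libraries as the 2 treatment comparisons. UBTF, LAS1L and UTP20 had a lower treatment effect at 24 h, which is 7.32% of the members beside 7.94% of all genes called lower and 15.9% called either way. None had a higher effect by edgeR or DESeq2, beside 7.96% of all genes. At an unadjusted p under 0.05 in edgeR, 3 were higher and 10 lower. The share of all genes at that unadjusted threshold was not counted, so no excess can be read from these numbers. The difference was log2 −0.57 for UBTF (standard error 0.13, adjusted p = 0.00593), −0.56 for LAS1L (standard error 0.15, adjusted p = 0.0174) and −0.42 for UTP20 (standard error 0.12, adjusted p = 0.0219). UBTF was called under all 14 alternatives, LAS1L under 10 and UTP20 under 7. With all libraries kept, UTP20 was not called by DESeq2 (adjusted p = 0.0702) or by edgeR without the count filter (adjusted p = 0.0607). LAS1L lost the call without vehicle library A or B of 12 h (adjusted p = 0.0708 and 0.0567), EMD37 library B of 12 h (0.144) or EMD37 library B of 24 h (0.107). UTP20 lost it without vehicle library B (0.156), EMD37 library A (0.0571) or EMD37 library B (0.137) of 12 h, or without vehicle library A (0.0532) or EMD37 library A (0.137) of 24 h. For GNL3, called at 12 h and not at 24 h, the difference of −0.27 had an adjusted p of 0.147. Without vehicle library B of 24 h, 7 members had a lower effect, FBL, WDR75, GNL3 and NCL joining the 3, beside 9.16% of all genes, and without vehicle library A of 24 h DDX10 had a higher one (0.49, adjusted p = 0.00509). Scaled by library totals alone, 6 members had a lower effect at 24 h, beside 9.61% of all genes.

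Time in vehicle alone moved no member past the threshold in edgeR, beside 2.75% of all genes called higher and 3.25% lower (5.99% either way), and DESeq2 also called none. At an unadjusted p under 0.05 in edgeR, 4 members were higher and 3 lower at 24 h, and the share of all genes at that threshold was not counted. Without overlap between libraries, 14 members were higher and 8 lower, beside 24% and 25.5% of all genes. The estimates ran from log2 −0.40 for UTP4 to 0.56 for BOP1. The BOP1 value rests on 1 library, being 1.01 without vehicle library A of 24 h and −0.07 without B. Without vehicle library A of 24 h, RRP12 (0.33), PES1 (0.38) and BOP1 were called higher and NPM1 (−0.30) lower, and without B GNL3 (0.36) was called higher.

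A list of 121 other ribosome biogenesis genes was set by role, and 118 of them were tested. At 24 h, 18 rose (15.3%) and 27 fell (22.9%), beside 19.6% and 21.1% of all genes, and by library totals alone 13 rose and 35 fell, beside 15.9% and 26.5%. Without EMD37 library A of 24 h the number that fell was 12, beside 13.6% of all genes at that setting. The largest falls were those of POLR1G, POLR1E and POLR2L, all subunits of RNA polymerase I, and RRP36, a processome protein. POLR1G went from 51.5 and 59.1 CPM with vehicle to 30.6 and 26.5 with EMD37, log2 −0.96 (standard error 0.11, adjusted p = 4.79e-06). POLR1E went from 111 and 113 CPM to 67.3 and 65.3, log2 −0.76 (standard error 0.08, adjusted p = 9.93e-07). In both genes the EMD37 libraries lay well below the vehicle libraries at 24 h.

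POLR2L, a small subunit shared by all 3 nuclear RNA polymerases, changed by log2 −0.73 (standard error 0.16) and RRP36 by −0.69 (standard error 0.11). Of the 14 other RNA polymerase I genes, 6 fell (42.9%) and 1 rose (7.14%), beside 21.1% and 19.6% of all genes. The gene that rose was TAF1A, part of the selectivity factor SL1, at 0.58. The largest rises were those of EFL1, the GTPase that frees eIF6 from new 60S subunits, at log2 0.93 (standard error 0.14), RSL24D1, a placeholder protein of precursor 60S, at 0.73 (standard error 0.09), UTP25, a processome protein, at 0.71 (standard error 0.09), and TAF1A. In the processome and 40S group 8 of 41 tested rose (19.5%) and 5 fell (12.2%), beside 19.6% and 21.1% of all genes. In the 60S group 8 of 52 rose (15.4%) and 14 fell (26.9%). Of 11 in the snoRNP group, 1 rose (9.09%) and 2 fell (18.2%).

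**Figure D5:**
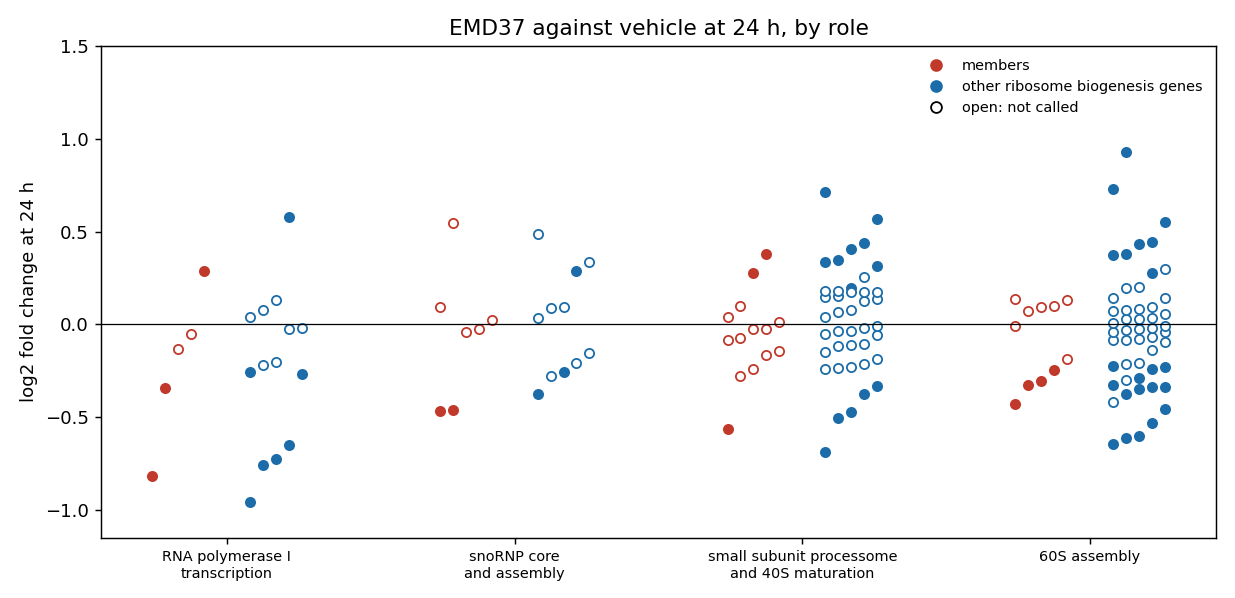
Log2 fold change of EMD37 over vehicle at 24 h for members (red) and other ribosome biogenesis genes (blue) in 4 roles; each point is 1 gene, filled where called. The RNA polymerase I column holds UBTF at −0.82 among members and POLR1G at −0.96 among the others.

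At 12 h, 1 of the 118 other genes rose and 6 fell, beside 5.27% and 3.43% of all genes, and by library totals alone 1 rose and 10 fell, beside 4.58% and 5.32%. WDR74, a 60S factor, rose by log2 0.33 (standard error 0.08, adjusted p = 0.0167), a call lost when any of the 4 libraries of that time was left out. IMP3, a U3 snoRNP protein, went from 97.8 and 96.8 CPM to 59.7 and 65.7, log2 −0.63 (standard error 0.08, adjusted p = 6.12e-05). RRS1, which brings the 5S particle into precursor 60S, went from 113 and 114 CPM to 76.9 and 72.0, log2 −0.61 (standard error 0.09, adjusted p = 0.000297). At 12 h the falls of IMP3 and RRS1 were thus larger than that of any member, the lowest member being UBTF at −0.25. The number that fell at 12 h was 3 without vehicle library A and 2 without EMD37 library B of that time, beside 0.794% and 0.679% of all genes. In the interaction 8 had a higher and 6 a lower effect at 24 h, beside 7.96% and 7.94% of all genes. By library totals alone these were 8 and 10, beside 7.1% and 9.61% of all genes. Leaving out EMD37 library B of 12 h left 2 higher and 1 lower there, beside 4.34% and 3.29% of all genes, and leaving out vehicle library A of 24 h gave 14 lower, beside 10.4%. In vehicle over time 3 were higher and 1 lower, beside 2.75% and 3.25% of all genes, and without vehicle library A of 24 h these were 22 and 6, beside 10.1% and 5.98%.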

How the data were processed

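RNA-seq was measured in 8 libraries of MDA-MB-231 cells, made from 1 µg of total RNA with the TruSeq V2 kit per the labels' protocols. The submitters' processing notes name STAR, FastQC and DESeq2 and the build hg38, and give no versions. The read counter and its strand setting were not stated there. The authors deposited whole-number read counts per gene, and all tests used these reads. The normalized counts they deposited (signal) were these reads divided by 1 size factor per library, and whole reads were recovered from them for 6912 IDs that the count table used here did not hold (55296 of 55296 values whole within 0.01). With them, 17863 genes were tested, which gave the values of BOP1 and of 4 of the other ribosome biogenesis genes (ZNHIT3, DDX52, AATF and NOL12). This count test on recovered reads called 3443 genes higher and 3304 lower at 24 h.

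Genes were named with GENCODE 29 on GRCh38. In edgeR 4.0.16 under R 4.3.3, filterByExpr (minimum count 10) kept 14850 genes of the count table, TMM factors ran from 0.948 to 1.03, and 1 model with a mean per group left 4 residual degrees of freedom, with a biological coefficient of variation of 0.0733. The quasi-likelihood test with Benjamini-Hochberg adjustment over all genes tested was used at an adjusted p below 0.05, and standard errors come from this fit. Percent changes and CPM use TMM library sizes, and RPKM uses the union of exon lengths. Reads ranged from 8.99 M to 11.44 M per library, and precision is lowest for members with few reads.

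The members and gene lists were chosen with earlier results of these data known. All 41 members are named by role. Values per library are given for the largest changes at 12 h and 24 h, the smallest p in the interaction and in each role, and for members singled out in the text. Of the other genes, the 4 largest rises and falls at 24 h and up to 2 each way at 12 h are named. Alternatives were DESeq2 1.42.0, its size factors, library totals, no count filter, only the groups compared, recovered reads, a replicate block and leaving out each library. Protein sequences were not used here. The tested other genes leave out NOP10, PWP2 and SBDS. NOP10 had a mean of 0.875 reads per library and PWP2 a mean of 0.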

Additional observations from a re-analysis of the deposited data

Results flagged for a closer look

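The treatment effect at 24 h differed from that at 12 h, by the interaction term in edgeR (quasi-likelihood, p adjusted by Benjamini-Hochberg), for 3 members and 5 of the other ribosome biogenesis genes named above. Among members, the effect was lower at 24 h by log2 −0.57 for UBTF, −0.42 for UTP20 and −0.56 for LAS1L. Among the others it was lower by −0.71 for POLR1E (adjusted p = 0.000306) and −0.54 for RRP36 (adjusted p = 0.0200). It was higher by 0.53 for UTP25 (adjusted p = 0.00797), 0.58 for RSL24D1 (adjusted p = 0.0049) and 0.74 for EFL1 (adjusted p = 0.0178). POLR1E stood at 97.5 and 95.3 CPM with vehicle and 93.5 and 93.7 CPM with EMD37 at 12 h, where the groups were close, and fell at 24 h.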

How the results depend on the processing

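Over 2419 values of single members under an alternative, 2335 were counted as unchanged, 33 lost a call, 42 gained one and 9 changed sign. Sign changes were counted only where either fit called the gene or the main value exceeded its standard error in size. Values counted as unchanged can therefore include small ones that crossed 0, and ones without an adjusted p. The cause was not tested for any of the changes. At 12 h, a fit of only the groups compared called 4 members higher and 2 lower, and 8 of the other ribosome biogenesis genes higher and 11 lower, beside 9.87% and 7.85% of all genes. Library totals called 2 members lower and 10 of the others lower at 12 h, beside 5.32% of all genes. Without the count filter 0 of the others rose at 12 h, beside 2.53% of the 30765 genes in that fit. In the interaction, library totals called 6 members and 10 of the others lower, beside 9.61% of all genes. DESeq2 called 3 of the others lower there, beside 2.35% of the 30765 genes in its fit. In vehicle over time, library totals and no count filter each called 1 member higher, beside 3.02% and 2.0% of all genes. Among the others DESeq2 called 2 lower, beside 1.35% of all genes. A fit of only the groups compared called 0 of the others higher and 0 lower, beside 0.3% and 0.593% of all genes.

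Leaving out 1 library at a time assumes that a lone library varies like the other groups. The share of all genes called also moved with the library left out, so the ranges that follow are not particular to these genes. The number of members called lower at 24 h moved too, as given by gene above, and no range is given for it. Members called higher ranged from 0 to 3 at 12 h, 1 to 6 at 24 h, 0 to 1 in the interaction and 0 to 3 in vehicle over time. Members called lower ranged from 0 to 1 at 12 h, 1 to 7 in the interaction and 0 to 1 in vehicle over time. Of the others, 0 to 4 rose and 2 to 9 fell at 12 h, 12 to 25 fell at 24 h, 2 to 12 were higher and 1 to 14 lower in the interaction, and 0 to 22 were higher and 0 to 6 lower in vehicle over time. Log2 changes counted as changing sign at 24 h ranged from −0.029 to 0.98 for NHP2, −0.28 to 0.038 for HEATR1 and −0.31 to 0.038 for LTV1. They ranged from −0.67 to 0.42 for BOP1 and −0.27 to 0.041 for NPM1. BOP1 ranged from −0.93 to 0.15 in the interaction. In vehicle over time, WDR75 ranged from −0.016 to 0.28, BOP1 from −0.070 to 1.01 and NPM1 from −0.30 to 0.010.

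Deviations of the A libraries from their group means correlated at −0.16 to 0.16 across genes. Such correlations cannot show whether libraries of the same letter were handled together, which the labels do not state. With the letter as a replicate block, 4 members rose and 9 fell at 24 h, beside 19.25% and 20.45% of all genes. At 12 h 1 member rose and 0 fell, beside 4.75% and 2.64% of all genes. In the interaction 0 members were higher and 3 lower, beside 7.2% of all genes each way. The block took the other ribosome biogenesis genes called lower in vehicle over time from 1 to 0, beside 2.38% of all genes with the block. Depth limits NHP2 and DKC1 most, with means of 11.4 and 61 reads per library.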

Other observations

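Of the 41 members, 7 hold annotated small nucleolar RNA genes inside their own gene (NOP56, NOP58, DKC1, WDR43, TSR1, GNL3 and NCL), a group formed after the values were seen. At 12 h these 7 had a median log2 change of 0.21 with EMD37, while the other 34 had a median of −0.02. The 7 ran from −0.21 for NOP56 to 0.37 for GNL3. Their median is the estimate of DKC1 (standard error 0.22), which rested on a mean of 61 reads per library. GNL3 was the 1 host called at 12 h, beside 8.7% of all genes called either way. At 24 h the medians were −0.03 and −0.06, NOP56 fell and no host rose. In the annotation NCL and WDR43 share no exon bases with another gene, and TSR1 shares them only with SGSM2 and SRR. Some of the small RNA genes in NOP56, NOP58, DKC1 and GNL3 overlap exons of the host. Reads over those cannot be told apart from reads of the host, since the counting rule was not stated.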
